A study of Mus musculus with 3 samples.

Results

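The matrix metalloproteinases (MMPs), the tissue inhibitors of metalloproteinases (TIMPs) and the ADAMTS proteases were followed through single-cell RNA profiles of mouse dorsal skin. All features whose symbol is Mmp, Timp or Adamts followed by a number, with a letter allowed after an Mmp number, were taken: 45 of 31053, of which 22 are Mmp, 4 Timp and 19 Adamts genes. The ADAMTS-like genes, which carry no protease domain, were not included. Each of 3 groups was profiled as 1 droplet library. The young control carried floxed alleles of Yap1 and Wwtr1 (Yap1 fl/fl; Wwtr1 fl/fl), and was 2.5 months old. The young YAP/TAZ knockout carried the same floxed alleles with R26-CAG-CreER, a tamoxifen-activated recombinase driven by a ubiquitous promoter, so that no cell type was targeted in particular. Its age was also 2.5 months. Both young groups were given tamoxifen by gavage, 0.11 mg per gram of body weight, for 4 weeks with 2 consecutive dosing days in each. The old control was wild-type, untreated and 24 months old. Old and young control therefore also differed in the floxed alleles and in tamoxifen, and age cannot be told apart from these. With 1 library per group no test across animals is possible. Brackets give 95% intervals that cover counting error only.

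MMPs are zinc endopeptidases that are made as inactive precursors and cleave collagens, gelatin, proteoglycans and other matrix proteins once the propeptide is removed. Some are secreted and others are anchored in the cell membrane. ADAMTS proteases are secreted zinc proteases with thrombospondin repeats: some cleave the proteoglycans versican and aggrecan, others remove the amino-terminal propeptide of fibrillar procollagens, and others act on fibrillin microfibrils. TIMPs bind the active site of MMPs, and TIMP3 is the family member that is held in the extracellular matrix. In skin these genes serve matrix turnover by fibroblasts, vessel remodelling and the passage of immune cells. YAP and TAZ (encoded by Wwtr1) are co-activators of TEAD transcription factors.

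The active site that gives these enzymes their name was read from the coding sequence (GENCODE M21 transcripts, GRCm38). In all 41 proteases of the set the longest reading frame held exactly 1 match to the zinc-binding motif of 11 codons. The stretches of 33 bases are shown 5′ to 3′ for the genes on which the comparisons below turn, with the codons of the zinc-binding histidines and of the catalytic glutamate in capitals.
Adamts1: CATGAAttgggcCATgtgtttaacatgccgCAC
Adamts4: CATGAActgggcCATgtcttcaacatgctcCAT
Adamts9: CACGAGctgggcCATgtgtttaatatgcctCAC
Adamts5: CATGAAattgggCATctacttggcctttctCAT
Adamts2: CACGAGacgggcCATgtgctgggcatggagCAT
Mmp2: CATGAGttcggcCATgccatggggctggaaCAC
Mmp14: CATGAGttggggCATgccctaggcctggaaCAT
Mmp3: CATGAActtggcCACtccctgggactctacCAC
Mmp27: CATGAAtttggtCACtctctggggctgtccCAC
Among the proteoglycan-cleaving members, Adamts1 and Adamts9 matched at 28 of 33 bases and Adamts1 and Adamts4 at 27 of 33. Adamts5 stood further off, with 20 of 33 bases shared with Adamts1 and 19 of 33 with Adamts4. Adamts1 (chr16:85793827-85803113, minus strand) and Adamts5 (chr16:85856173-85901828, minus strand) are neighbours, 53059 bases apart. Adamts4 lies at chr1:171250421-171260637, plus strand, Adamts9 at chr6:92772699-92943492, minus strand, and Adamts2 at chr11:50602084-50807573, plus strand. Mmp2 lies at chr8:92827291-92853420, plus strand and Mmp14 at chr14:54431612-54445364, plus strand.

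A run of 9 Mmp genes fills 427072 bases of chromosome 9 (chr9:7272514-7699585), in the order Mmp13, Mmp12, Mmp1b, Mmp3, Mmp10, Mmp8, Mmp27, Mmp20 and Mmp7. Promoters were taken from RefSeq (GRCm38.p6), which matched 31 members with 34 start sites. Adamts4, Adamts5, Adamts10, Mmp2 and Mmp9 were among the members without an entry, so their promoters were not searched for either motif below. The AP-1 motif, TGAGTCA or its reverse complement TGACTCA, stood in the 250 bases before 6 of these starts (17.6%), against 4.46% of all 32851 promoters in the table. All 6 belong to the chromosome 9 run. The TEAD motif, GGAATG or CATTCC, stood before 2 of the 34 (5.88%, Timp1 and Adamts13), against 12.6% of all. The 100 bases before the start are shown for 3 genes of the run with the AP-1 letters in capitals and, in last place, for Mmp27, which has no match in its 250 bases. They are shown because the run held both the strongest fibroblast-restricted levels and members without a single molecule.
Mmp3, chr9:7445722-7445821, plus strand: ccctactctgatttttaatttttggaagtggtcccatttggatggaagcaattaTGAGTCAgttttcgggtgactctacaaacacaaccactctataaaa
Mmp10, chr9:7502242-7502341, plus strand: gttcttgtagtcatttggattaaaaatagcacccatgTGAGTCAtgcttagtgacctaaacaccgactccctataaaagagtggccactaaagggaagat
Mmp13, chr9:7272414-7272513, plus strand: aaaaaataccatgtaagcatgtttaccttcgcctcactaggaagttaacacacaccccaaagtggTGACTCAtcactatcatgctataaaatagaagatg
Mmp27, chr9:7571296-7571395, plus strand: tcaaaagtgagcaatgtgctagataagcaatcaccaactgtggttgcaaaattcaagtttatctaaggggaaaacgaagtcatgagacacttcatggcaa
The motif began at position -46 from the start of Mmp3, -63 of Mmp10 and -35 of Mmp13. It also stood at -93 of Mmp1b, -63 of 1 of the starts of Mmp7 and -44 of 1 of the starts of Mmp12. Levels along the run differed widely. Mmp27 had 6411 UMIs over the 3 libraries and Mmp3 4508, but Mmp12 had 583, Mmp13 35, Mmp10 4, and Mmp1b and Mmp7 had 0. A match of letters is not a binding site, and a missing match says nothing of the factor. The AP-1 subunit Fos stood at 5002 CPM in young control, 4421 in knockout and 5148 in old control fibroblast-like cells.

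The libraries held 15290 to 25348 barcodes and 52579262 to 95274423 UMIs, of which 8655 to 11108 cells were kept per library. The knockout library stood apart in its mitochondrial share, with a median of 18.6% per barcode against 5.58% in the young and 9.41% in the old control. Cells were clustered without the 45 genes, and clusters were named from markers as "X-like". The unnamed clusters took 11.3% of the young control library, 68.0% of the knockout and 38.9% of the old control, so that no cell numbers are compared. Wwtr1 was lower in knockout fibroblast-like cells (26.6 against 126 CPM, ratio 0.212 [0.145 to 0.298]), while the Yap1 ratio was 0.862 [0.657 to 1.11], with an interval that includes 1. In the other classes compared in the knockout with a Yap1 UMI, the Yap1 ratio ran from 0.151 [0.0943 to 0.229] in keratinocyte-like to 1.08 [0.876 to 1.32] in dermal papilla or sheath-like cells. In the other classes compared, apart from T, NK or innate lymphoid-like cells, the Wwtr1 ratio lay at or below 0.0652. The labels do not name the floxed exons. Xist was read in both controls and absent from knockout fibroblast-like cells, where the Y-linked Ddx3y was read instead. Genotype and sex therefore cannot be told apart. Of the kept cells, 133 to 171 per library carried a barcode that another library also held.

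In young control skin the fibroblast-like cells (2550 cells, 14912239 UMIs) were the main source of MMP transcripts. Levels are given as CPM, the UMIs of a gene scaled to a common total of all UMIs in the cell class. Of the 29 members that reached 20 CPM, 11 were highest there. The kit reads 1 tag near the 3′ end of each molecule, so levels of different genes were compared as UMIs and not scaled to length. Mmp2, gelatinase A, stood at 870.5 [856 to 886] CPM, against 88.6 in the next class, the dermal papilla or sheath-like cells. Mmp14, the membrane-bound enzyme that activates the Mmp2 precursor, stood at 832 [818 to 847] CPM and was the only Mmp gene above 20 CPM in all 15 classes. Adamts2, the procollagen I amino-terminal propeptidase, stood at 931 [915 to 946] CPM and Timp2, the inhibitor that also takes part in activating the Mmp2 precursor, at 2601 [2575 to 2627]. Each of these 4 intervals lay above that of the next class.

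Of the other fibroblast members, Mmp27 and Mmp3 stood furthest above the next class. Mmp27 stood at 255 [247 to 263] CPM in fibroblast-like cells and at most 9.53 in any other class. Mmp3, stromelysin 1, stood at 147 [141 to 153] CPM, with a next-highest level of 8.02 in smooth muscle-like cells. Mmp23 stood at 146 and Mmp11 (stromelysin 3) at 65.4 CPM. Adamts6 did not separate from mast-like cells, with 21.8 [19.5 to 24.3] against 9.52 [2.59 to 24.4] CPM. Mmp19 did not separate from its neighbour in the order, with 52.0 [48.4 to 55.8] CPM in fibroblast-like and 44.4 [30.2 to 63.0] in macrophage or monocyte-like cells. Timp1, the inducible inhibitor, was low in the young control, with 30.8 [28.0 to 33.7] CPM in fibroblast-like cells as its highest level.

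**Figure D1:**
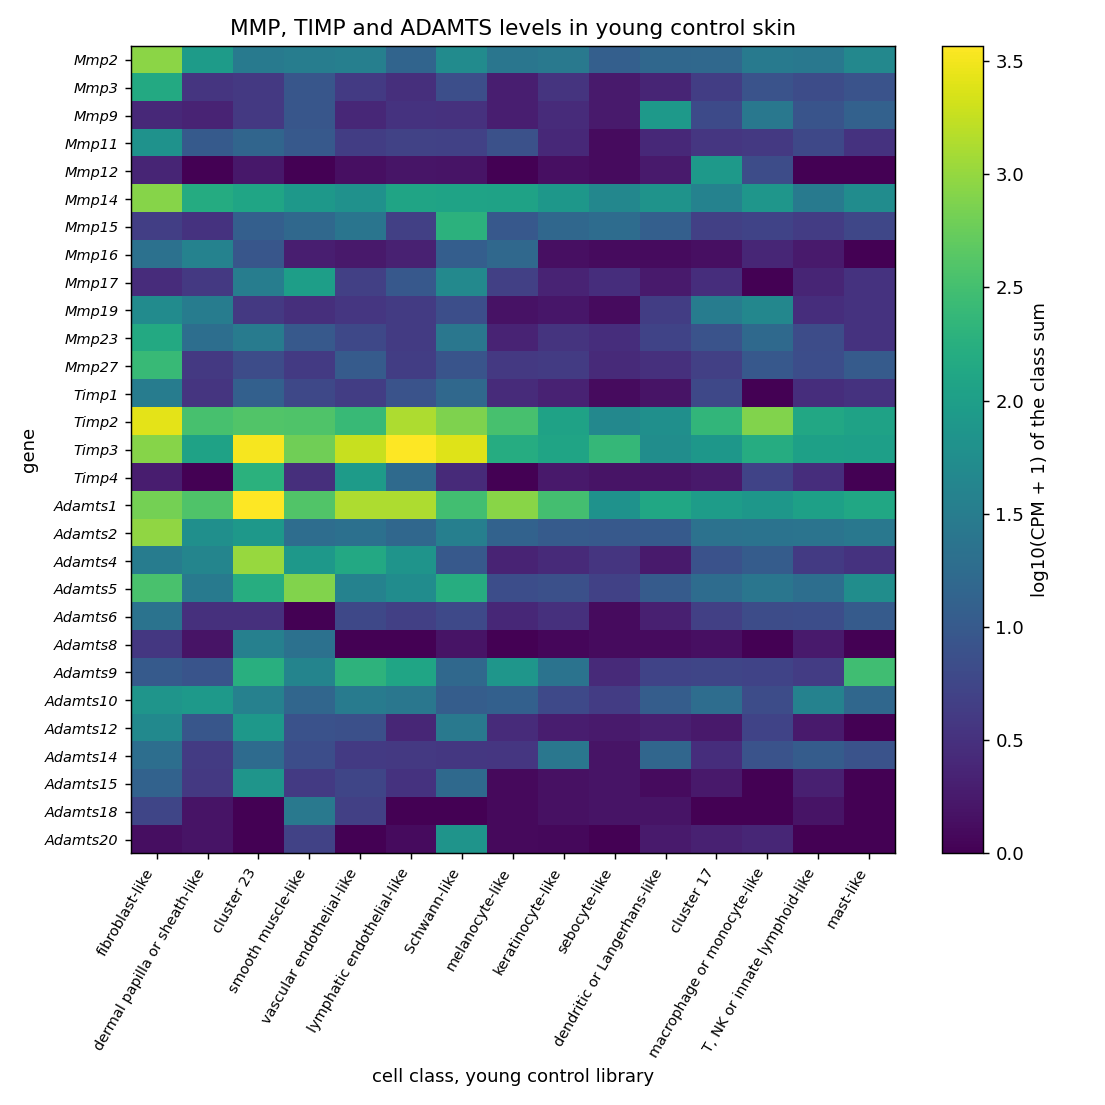
Levels of the 29 members that reached 20 CPM, in rows, over the cell classes of the young control library, in columns, as log10(CPM + 1) of the class sum. Most Mmp genes are brightest in the fibroblast-like column, while Adamts1, Adamts4, Timp3 and Timp4 are bright in cluster 23 and in the endothelial-like columns.

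Adamts1, Adamts4 and Adamts15, which cleave proteoglycans, had their maxima in vessel cells rather than in fibroblast-like cells. Cluster 23, led by the mural cell genes Rgs5, Pln and Aoc3 and left unnamed, held 3681 [3581 to 3784] CPM of Adamts1, 1042 [989 to 1097] of Adamts4 and 71.5 of Adamts15. Vascular endothelial-like cells came next, with 1347 CPM of Adamts1 and 139.9 of Adamts4. Adamts12, which cleaves cartilage oligomeric matrix protein, was also highest in cluster 23, with 78.0 CPM against 47.5 in fibroblast-like cells. Adamts5 differed from these in place: it was highest in smooth muscle-like cells (773 [719.7 to 829.9] CPM), ahead of fibroblast-like cells (351) and cluster 23 (168). Mmp17, a membrane-anchored enzyme (98.3 CPM), and Adamts18 (27.1) were highest in the same smooth muscle-like class, which in the young control rested on 102 cells. Adamts8 did not separate between cluster 23 (34.7 [25.5 to 45.9] CPM) and smooth muscle-like cells (20.1 [12.3 to 31.0]).

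Among the inhibitors, Timp3 had its highest levels in vessel and nerve cells. It stood at 3622 CPM in lymphatic endothelial-like cells, 3311 in cluster 23, 2478 in Schwann-like and 1844 in vascular endothelial-like cells. Timp4 was narrow, with 186 CPM in cluster 23, 88.4 in vascular endothelial-like cells and no more than 16.1 in any other class. Timp1, Timp3 and Timp4 each lie inside a synapsin gene on the opposite strand (Syn1, Syn3 and Syn2). Syn3 reads were few beside those of Timp3, with 33.7 CPM in the same lymphatic endothelial-like cells. Syn2 exceeded Timp4 there, with 47.9 CPM, and it is not known here whether the counting used strand.

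Single members marked other cells. Mmp9, gelatinase B, was highest in dendritic or Langerhans-like cells (82.7 [73.8 to 92.3] CPM), and within them in cluster 20, led by the Langerhans gene Cd207 (109 CPM). Mmp12, macrophage elastase, was read mainly in cluster 17 (84.6 [73.8 to 96.5] CPM), an unnamed cluster led by Il1b and Wfdc17. The Schwann-like cells held Mmp15 (192 CPM, next class 23.6) and Adamts20 (69.2 CPM, next class 4.01). Adamts9, a proteoglycan-cleaving member, was highest in mast-like cells (298 [248 to 355] CPM, 117 cells), and Adamts14, a procollagen propeptidase, in keratinocyte-like cells (24.8). Adamts10, a fibrillin-related member, and Mmp16, a membrane-bound MMP, were highest in dermal papilla or sheath-like cells. They stood at 81.6 [72.8 to 91.1] and 36.9 CPM, and the interval of Adamts10 overlapped that of fibroblast-like cells (71.7 [67.5 to 76.1]).

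The other 16 members stayed under 20 CPM in every class of at least 50 cells in each library. They were the collagenases Mmp1b, Mmp8 and Mmp13, the stromelysin Mmp10, the matrilysin Mmp7, Mmp20, Mmp21, Mmp24, Mmp25, Mmp28, Adamts3, Adamts7, Adamts13, Adamts16, Adamts17 and Adamts19. Adamts7 came nearest, with 15.8 CPM in dermal papilla or sheath-like cells. Mmp13, the main interstitial collagenase of the mouse, was highest in macrophage or monocyte-like cells with 10.0 [4.03 to 20.7] CPM from 7 UMIs. Mmp8, the neutrophil collagenase, reached 8.38 CPM in cluster 17. For Mmp7, 0 UMIs in young control fibroblast-like cells allow a level of up to 0.201 CPM, a floor of 3 counts in that class sum.

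The fibroblast-like class was made of 4 clusters whose members differed. Cluster 1 (led by Col1a1 and Mfap4) and cluster 13 (Gpx3, Dpt and C3) carried Mmp27 and Mmp3, while cluster 33 (Sfrp5 and Apod) and cluster 34 (Coch, Fmod and Tnmd) nearly lacked both. In the young control Mmp27 stood at 319.7 CPM in cluster 1, 218 in cluster 13, 7.49 in cluster 33 and 7.36 in cluster 34. Mmp3 stood at 103, 238, 5.62 and 5.89 CPM in the same order. Mmp11 instead paired clusters 13 (121 CPM) and 34 (116), with 25.4 in cluster 1 and 3.74 in cluster 33. Adamts2 followed the collagen-rich clusters, with 994 CPM in cluster 1 and 299.5 in cluster 33. Timp3 was lowest in cluster 34 (514 CPM) and highest in cluster 33 (1256). Clusters were unevenly filled: cluster 13 held 835 young control cells but 13 knockout and 37 old control cells, and a class ratio can move with this mix.

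**Figure D2:**
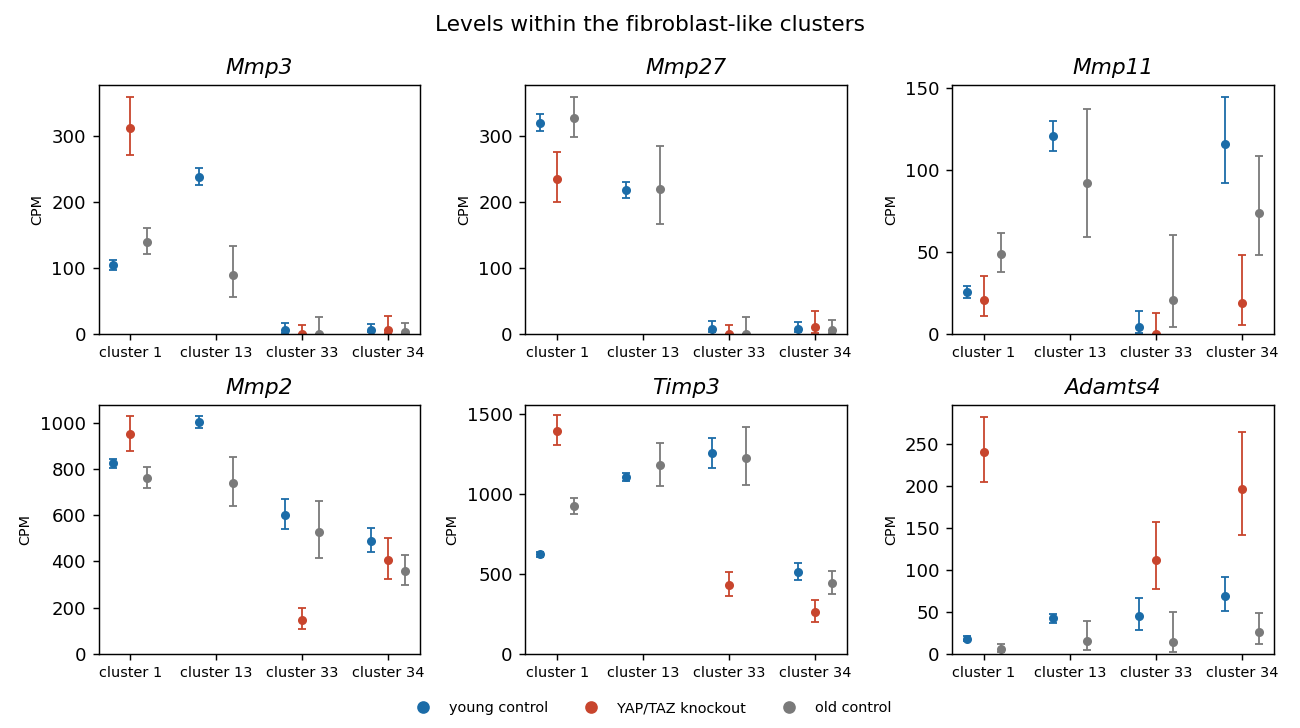
CPM of 6 members, on the y axis, in the 4 fibroblast-like clusters, on the x axis, by library; bars are exact Poisson 95% intervals, and clusters with under 30 cells in a library are not drawn. Mmp3 and Mmp27 are near 0 in clusters 33 and 34, and Adamts4 is higher in the knockout in each cluster drawn.

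The first comparison sets the knockout library beside the young control, at a matched age and tamoxifen course. These libraries also differed in sex by the reads of Xist and Ddx3y, so genotype, sex and library cannot be told apart. A gene was counted as higher or lower when the mean of its CPM in both groups reached 20, its ratio lay at or beyond 2 or 0.5, and the bound of the interval closer to 1 still passed 1.5-fold. By this rule the proteoglycan-cleaving Adamts4 was higher in 6 cell classes of the knockout library. Over all named classes compared, 12 calls were higher and 5 lower out of 81 tests of members in 8 classes, where 3.57% and 4.02% of all gene tests in these classes were. Adamts4, Adamts5 and Adamts9 gave 12 of these 17 calls. Keratinocyte-like cells gave 0 calls among 5 members (2.48% of all genes were higher and 5.31% lower), and T, NK or innate lymphoid-like cells 0 among 5 (3.05% and 3.32%). Each call was repeated under 9 other processing choices, where these gave a value.

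In fibroblast-like cells Adamts4 stood at 30.6 CPM [27.9 to 33.6] in young control cells, 201 [177 to 227] in knockout cells and 10.9 [6.88 to 16.3] in old control cells. The knockout lay above both controls with no overlap of intervals, and its ratio to the young control was 6.55 [5.59 to 7.66]. The call was made under 9 of 9 other choices, with ratios of 5.71 to 13.3. Of 17 members tested in this class 2 were higher and 2 lower, where 6.06% of all 6224 genes tested were higher and 3.89% lower. The median log2 ratio of the members was -0.32, against 0.19 over all genes. An Adamts4 UMI was found in 45.9% [38.5 to 53.4] of knockout, 10.0% of young and 5.05% of old control cells, and in 25.1%, 3.06% and 1.75% of cells thinned to 1500 UMIs (4, 68 and 34 shallower cells left out). In keratinocyte-like cells, taken as a background, the unthinned shares were 4.23%, 1.33% and 0.963%. Median depths were 5595 to 6287 UMIs per fibroblast-like and 5037 to 8859 per keratinocyte-like cell. Pericyte markers summed to 276 CPM in knockout and 95.6 in young control fibroblast-like cells, and dermal papilla or sheath markers to 681 and 228. Smooth muscle (214 and 169) and vascular endothelial markers (102 and 81.9) were also higher, and lymphatic endothelial markers lower (21.8 and 64.0). Their part in the Adamts4 result was not tested. Within clusters, Adamts4 was 241 against 18.1 CPM in cluster 1 (ratio 13.3 [10.6 to 16.9]), 196 against 69.2 in cluster 34 and 112 against 44.9 in cluster 33.

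The vessel cells compared showed the same direction from a higher base. In the vascular endothelial-like class 91 knockout cells were kept. Cluster 2, led by Selp and Csf3 and nearest to the vascular endothelial markers, stayed unnamed, with 1624 knockout and 2 young control cells. Cluster 4, between smooth muscle and vascular endothelial markers, also stayed unnamed, with 1209 and 14 such cells. Neither cluster is part of the values below. In vascular endothelial-like cells Adamts4 stood at 139.9 CPM [126 to 155] in young control cells, 468 [406 to 537] in knockout cells and 90.6 [73.9 to 109.8] in old control cells. The knockout ratio was 3.35 [2.81 to 3.98], and 3 of 11 members tested were higher in this class and 0 lower, where 1.59% and 2.67% of all genes were. In lymphatic endothelial-like cells, 54 of them in the knockout, Adamts4 stood at 70.1 CPM [61.5 to 79.5] in young control cells, 234 [192 to 283] in knockout cells and 45.7 [35.5 to 57.8] in old control cells. The ratio was 3.34 [2.64 to 4.21], called in 7 of 8 other choices but not in thinned cells (2.20), and Adamts4 was the 1 member higher among 9 tested (1.43% of all genes), with 0 lower (2.88%). In cluster 23, where it was most abundant, Adamts4 stood at 1042 CPM [989 to 1097] in young control cells and 1721 [1602 to 1846] in knockout cells, a ratio of 1.65 [1.51 to 1.80], which does not reach 2.

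The gene was also higher in dermal papilla or sheath-like cells, at 40.8 CPM [34.7 to 47.7] in young control cells, 106 [91.8 to 121] in knockout cells and 13.8 [10.5 to 17.8] in old control cells. This ratio was 2.59 [2.10 to 3.21], called in 9 of 9 other choices, and 2 of 11 members were higher there (5.16% of all genes). In smooth muscle-like cells it stood at 78.2 CPM [61.8 to 97.6] in young control cells, 178 [166 to 191] in knockout cells and 51.5 [35.5 to 72.4] in old control cells, with a ratio of 2.28 [1.80 to 2.91]. That call was lost when estimated free RNA was subtracted (1.51) and within the largest shared cluster (1.63). The estimated share of free RNA in this class was 0.372 of UMIs in the knockout and 0.0513 in the young control. In Schwann-like cells Adamts4 stood at 9.0 CPM [5.14 to 14.6] in young control cells, 90.6 [77.9 to 105] in knockout cells and 4.27 [1.16 to 10.9] in old control cells, a ratio of 10.1 [6.03 to 18], and 3 of 13 members were higher (3.09% of all genes). The difference lay in cluster 5, led by Scn7a and Cdh19 (135 against 7.91 CPM), while the myelin-gene cluster 22, led by Ncmap and Prx, held 9.80 [3.94 to 20.2] and 9.81 [4.70 to 18] CPM. With the stricter cell filter the Schwann-like ratio was 2.65 and no longer called. Markers of vessel cells were also higher in knockout Schwann-like cells. The 7 smooth muscle markers summed to 1144 against 302 CPM (7 and 5 of them at 20 CPM), and the 8 vascular endothelial markers to 370.1 against 124 (8 and 2 at 20 CPM). Their part in the Schwann-like result was not tested.

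The barcodes with the fewest UMIs, from which free RNA was estimated, moved with this result. This lowest 10% held 277 CPM of Adamts4 in the knockout, 56.3 in the young control and 17.4 in the old control. Over all barcodes the levels were 244, 37.6 and 14.0 CPM in the same order. Barcodes of this lowest 10% reached 1092, 930 and 765 UMIs, so shallow cells among them cannot be told apart from free RNA. T, NK or innate lymphoid-like cells held 23.7 [10.2 to 46.7] against 2.98 [1.49 to 5.32] CPM. In keratinocyte-like cells, 71 of them in the knockout, the intervals overlapped, with 2.25 [0.465 to 6.59] against 1.63 [1.20 to 2.15] CPM. The knockout interval is too wide to tell a rise from none. After subtraction of the estimated free RNA the knockout ratio was 6.95 in fibroblast-like and 3.17 in vascular endothelial-like cells.

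The heat-shock gene Hspa1b, a stress marker, was higher in most of the same classes. Its knockout ratio was 9.05 [8.51 to 9.62] in fibroblast-like, 5.89 [5.12 to 6.81] in Schwann-like, 5.27 [4.50 to 6.17] in vascular and 4.38 [3.87 to 4.96] in lymphatic endothelial-like and 2.27 [1.99 to 2.61] in smooth muscle-like cells. It was 1.71 [1.57 to 1.87] in dermal papilla or sheath-like cells, where Adamts4 was called, and 9.77 [8.19 to 11.6] in the T, NK or innate lymphoid-like class, where the Adamts4 level was under the limit for a call. In cluster 23 and keratinocyte-like cells, without an Adamts4 call, it was 1.58 [1.30 to 1.92] and 0.966 [0.901 to 1.03]. The part of cell stress in the Adamts4 result was not tested.

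**Figure D3:**
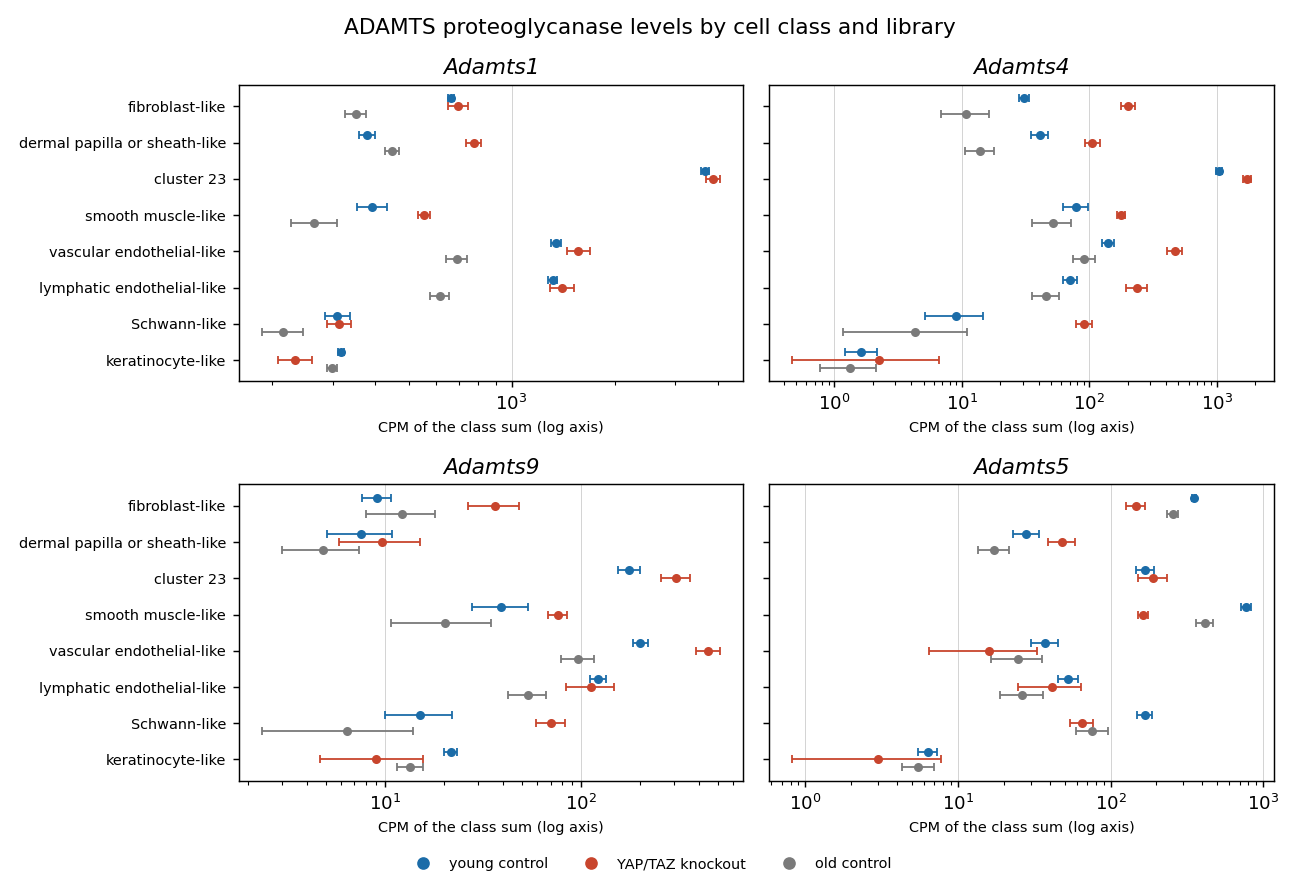
CPM of the class sum, on log x axes, for the proteoglycan-cleaving genes Adamts1, Adamts4, Adamts9 and Adamts5 in 8 cell classes by library, with exact Poisson 95% intervals; old control points are missing for cluster 23, which had 44 cells. Adamts4 is highest in the knockout in every class but overlaps the controls in keratinocyte-like cells, while Adamts5 is lower in the knockout than in both controls in fibroblast-like and smooth muscle-like cells and overlaps the old control in Schwann-like cells.

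Adamts5 was lower in 3 of the classes in which its relative Adamts4 was higher. In smooth muscle-like cells it stood at 773 CPM [719.7 to 829.9] in young control cells, 163 [151 to 175] in knockout cells and 414 [365 to 467] in old control cells. The knockout lay below both controls, with a ratio to the young control of 0.210 [0.190 to 0.233], called in 8 of 8 other choices (among 10 members 1 was lower, where 3.52% of all genes were, and 5.48% higher). Within cluster 11, which held most knockout and young control cells of the class, the levels were 231 against 1168 CPM. The old control value came from another cluster, number 31 (278 of 307 cells). In Schwann-like cells Adamts5 stood at 167 CPM [149 to 187] in young control cells, 64.8 [54.2 to 76.9] in knockout cells and 75.9 [59.2 to 95.7] in old control cells, so that knockout and old control overlapped below the young control. Its knockout ratio was 0.388 [0.314 to 0.478] (1 of 13 members lower, 5.57% of all genes), and it was lower in both cluster 5 (ratio 0.413 [0.309 to 0.552]) and cluster 22 (0.375 [0.266 to 0.519]). In fibroblast-like cells it stood at 351 CPM [342 to 361] in young control cells, 146 [125 to 169] in knockout cells and 256 [235 to 278] in old control cells, a ratio of 0.416 [0.357 to 0.482]. The call was not made within cluster 1, where the ratio was 0.692 [0.563 to 0.842]. Cluster 13, nearly empty in the knockout, held the most Adamts5 in the young control (557 CPM). In dermal papilla or sheath-like cells Adamts5 was at 48.0 against 28.1 CPM, a ratio of 1.71 [1.28 to 2.28] in the opposite direction and not called.

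Adamts9 was higher in 3 classes of the knockout. In vascular endothelial-like cells it stood at 201 CPM [184 to 219] in young control cells, 447 [387 to 515] in knockout cells and 96.7 [79.5 to 117] in old control cells. The order was knockout, young control, old control with no overlap, and the knockout ratio of 2.22 [1.88 to 2.62] was called in 9 of 9 other choices. In Schwann-like cells Adamts9 stood at 15.2 CPM [10.0 to 22.1] in young control cells and 70.3 [59.2 to 82.8] in knockout cells (ratio 4.63 [3.05 to 7.27]), again in cluster 5 (98.8 against 11.9 CPM) and not in cluster 22 (18.2 against 17.7). This call was lost with the stricter cell filter (1.78) and at Leiden resolution 2 (1.89). In fibroblast-like cells it stood at 9.12 CPM [7.65 to 10.8] in young control cells and 36.3 [26.5 to 48.6] in knockout cells (ratio 3.98 [2.78 to 5.61]). Cluster 33 held 112 against 26.2 CPM. Intervals overlapped in cluster 1 (4.73 [0.975 to 13.8] and 4.02 [2.75 to 5.67]) and in cluster 34 (42.0 [19.2 to 79.8] and 85.4 [64.8 to 110.4]). The fibroblast ratio turned to 0.180 when each library was clustered alone. The lowest-UMI barcodes held 109.6 CPM of Adamts9 in the knockout and 48.5 in the young control.

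In dermal papilla or sheath-like cells 2 other ADAMTS genes differed from the young control in opposite directions. Adamts1, the third proteoglycan-cleaving relative, stood at 378 CPM [359 to 398] in young control cells, 777 [738 to 817] in knockout cells and 447 [428 to 468] in old control cells. Its knockout ratio of 2.05 [1.91 to 2.21] was just past the limit and was not called in thinned cells (1.78). Adamts10, whose human counterpart is a gene of Weill-Marchesani syndrome, stood at 81.6 CPM [72.8 to 91.1] in young control cells, 24.5 [18.1 to 32.5] in knockout cells and 40.7 [34.9 to 47.2] in old control cells. Knockout, old control and young control followed in rising order without overlap, and the knockout ratio of 0.301 [0.217 to 0.408] was called in 9 of 9 other choices (1 of 11 members lower, 4.92% of all genes). Adamts1 itself differed little in the class where it was highest, cluster 23, with 3681 CPM [3581 to 3784] in young control cells and 3889.7 [3709.8 to 4076] in knockout cells.

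The MMP genes of the fibroblast-like class mostly lay within 2-fold of the young control. Mmp2 stood at 870.5 CPM [856 to 886] in young control cells, 696 [650.4 to 744] in knockout cells and 677 [642 to 713] in old control cells, and Mmp14 at 832 CPM [818 to 847] in young control cells, 947 [894 to 1003] in knockout cells and 598 [565 to 632] in old control cells. The knockout ratios were 0.80 [0.746 to 0.857] for Mmp2 and 1.14 [1.07 to 1.21] for Mmp14. Mmp11 was the only MMP called in a knockout class, at 65.4 CPM [61.3 to 69.6] in young control cells, 20.2 [13 to 29.8] in knockout cells and 56.1 [46.5 to 67.2] in old control cells. Its class ratio was 0.308 [0.199 to 0.458], called in 6 of 9 other choices, with ratios of 0.269 to 0.808. The call was lost with each library clustered alone, in thinned cells and within the largest shared cluster. Within cluster 34 the Mmp11 ratio was 0.161 [0.0427 to 0.428], but in cluster 1 the levels overlapped, with 20.5 [10.9 to 35.0] and 25.4 [22.0 to 29.1] CPM. Mmp27 stood at 255 CPM [247 to 263] in young control cells, 141 [121 to 164] in knockout cells and 238 [218 to 259.9] in old control cells, a knockout ratio of 0.553 [0.473 to 0.644], and Mmp23 at a ratio of 0.526 [0.423 to 0.646], neither past the limit. With TMM factors, which shift all fibroblast ratios of the knockout by 0.20 on the log2 scale, the split was 2 members higher and 5 lower in place of 2 and 2.

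Cluster 1, which allows the comparison within 1 kind of fibroblast (88 knockout and 1419 young control cells), gave a different set. Mmp3 was 312 [270.2 to 359] CPM in the knockout and 103 [96.5 to 111] in the young control there, a ratio of 3.02 [2.57 to 3.53], while the class ratio was 1.22 [1.06 to 1.40]. Mmp19 was 75.7 [55.8 to 100.3] against 35.1 [31.1 to 39.5] CPM. Timp3 was 1398 [1308 to 1494] against 623 [606 to 641], a ratio of 2.24 [2.09 to 2.41]. In cluster 33 the Timp3 ratio was 0.343 [0.282 to 0.416], so the direction differed between fibroblast-like clusters, and the class ratio was 1.23 [1.16 to 1.30]. Mmp2 also differed by cluster, with a ratio of 1.15 [1.06 to 1.25] in cluster 1 and 0.242 [0.172 to 0.334] in cluster 33. These within-cluster values were looked at after the class values were known.

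**Figure D4:**
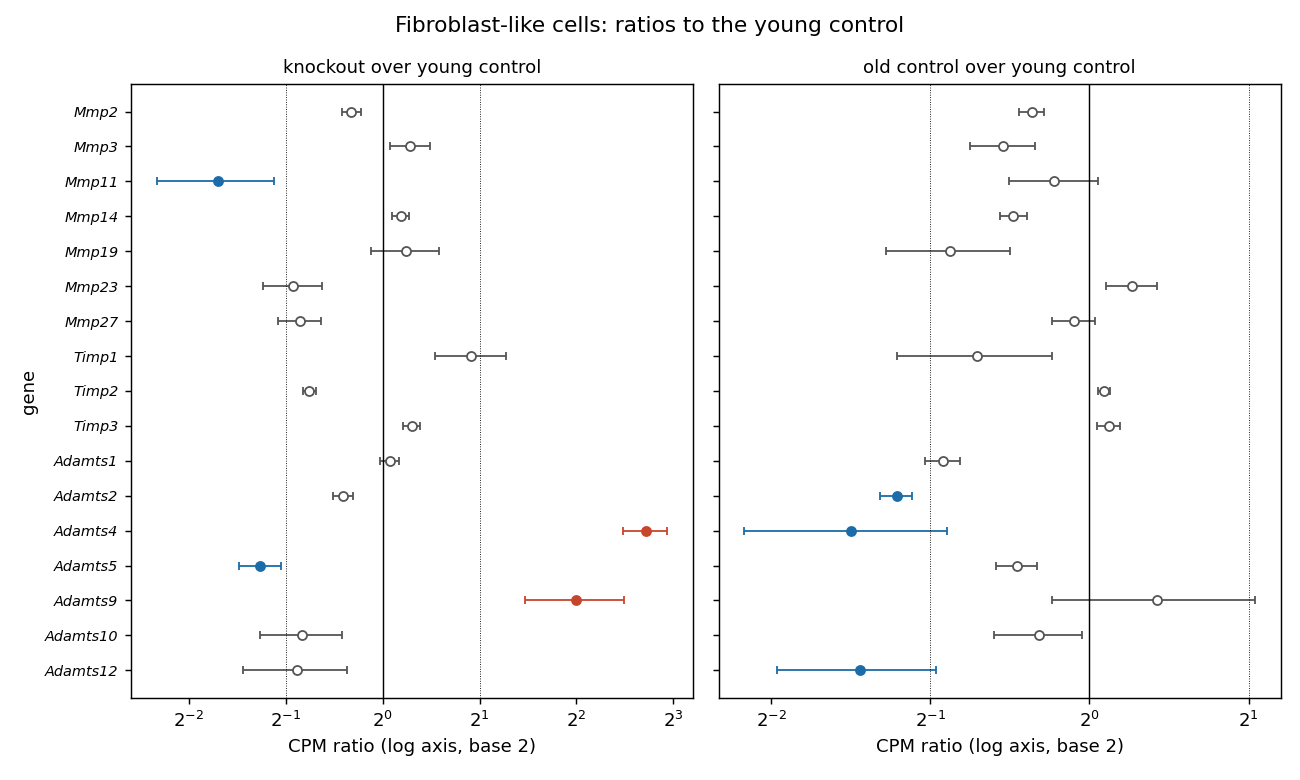
CPM ratios to the young control in fibroblast-like cells, on log x axes in base 2, for the members tested in at least 1 of the comparisons, with exact 95% intervals; filled points passed the fold rule (red higher, blue lower) and dotted lines mark ratios of 0.5 and 2. Adamts4 lies above 2 in the knockout and below 0.5 in the old control, and Adamts2 is the lower call of the old control with the narrowest interval.

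Among the inhibitors, Timp1 was higher in knockout Schwann-like cells, at 15.2 CPM [10.0 to 22.1] in young control cells, 71.3 [60.1 to 83.9] in knockout cells and 31.0 [20.8 to 44.5] in old control cells. The ratio was 4.69 [3.1 to 7.37] and both Schwann-like clusters shared it, with 76.6 against 30.3 CPM in cluster 5 and 61.6 against 3.92 in cluster 22. In thinned cells the Schwann-like ratio was 2.22 and not called. The lowest-UMI barcodes held 25.6 CPM of Timp1 in the knockout, 6.93 in the young control and 19.2 in the old control. In fibroblast-like cells Timp1 stood at 30.8 CPM [28.0 to 33.7] in young control cells, 58.1 [45.4 to 73.1] in knockout cells and 18.9 [13.5 to 25.7] in old control cells, a ratio of 1.89 [1.45 to 2.42] that does not reach 2. Timp3 was lower in cluster 23 of the knockout, with 3311 CPM [3216 to 3408] in young control cells and 905 [819 to 997] in knockout cells (ratio 0.273 [0.246 to 0.302], 1 of 15 members lower and 0 higher, where 3.47% and 1.92% of all genes were). Timp4 in vascular endothelial-like cells stood at 88.4 CPM [77.4 to 101] in young control cells, 256 [211 to 308] in knockout cells and 32.5 [22.9 to 44.8] in old control cells, a knockout ratio of 2.89 [2.29 to 3.64] that was 0.617 with a mitochondrial limit of 25% and 0.836 with each library clustered alone. Timp2 was lower in knockout fibroblast-like cells but within 2-fold, at 2601 CPM [2575 to 2627] in young control cells, 1539.8 [1471 to 1610.4] in knockout cells and 2772 [2702 to 2844] in old control cells.

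**Figure D5:**
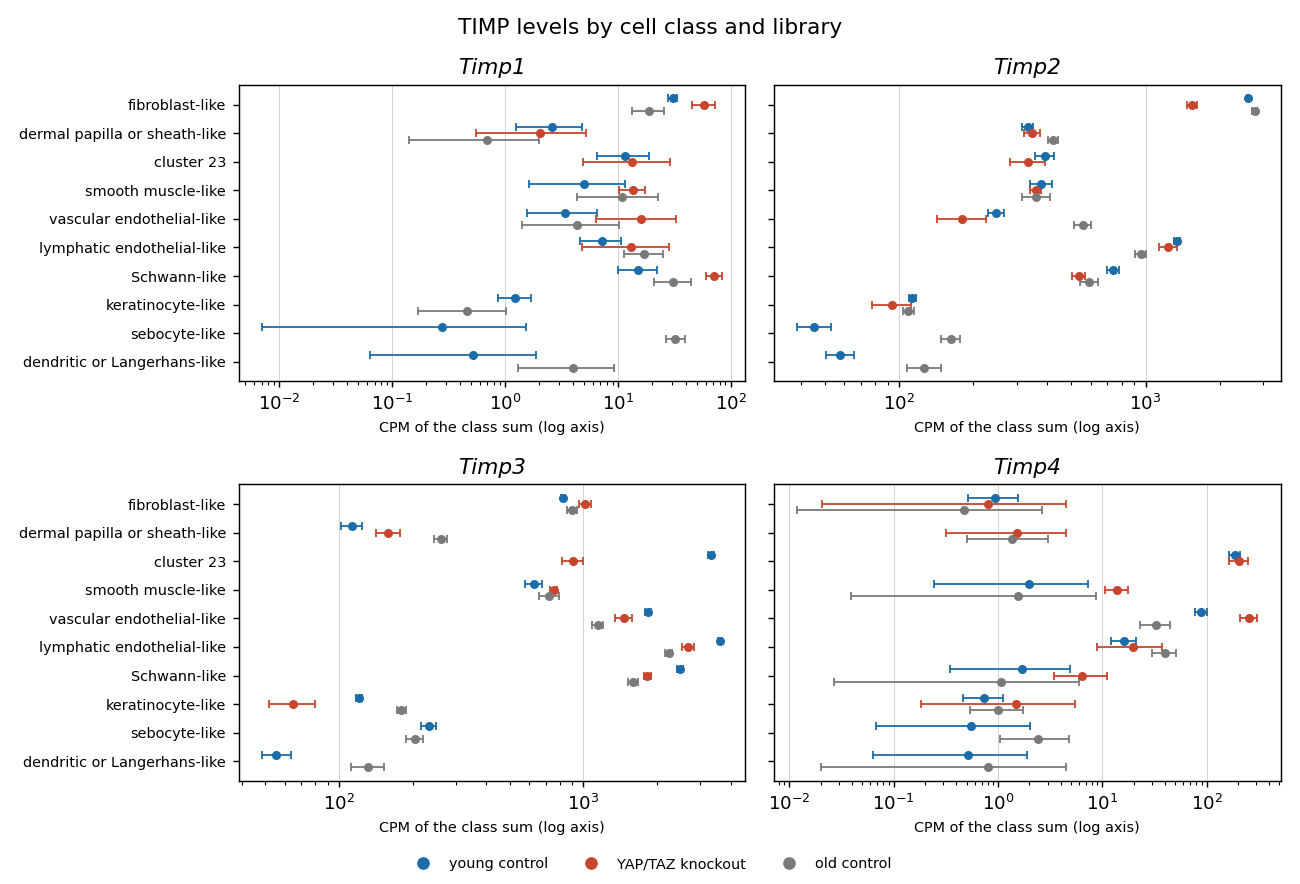
CPM of the class sum, on log x axes, for the inhibitors Timp1, Timp2, Timp3 and Timp4 in 10 cell classes by library, with exact Poisson 95% intervals; points with 0 UMIs or under 50 cells are not drawn. Timp2 is highest in fibroblast-like cells of all libraries, and Timp3 of cluster 23 is lower in the knockout.

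The second comparison sets the skin of 24 months beside that of 2.5 months. In fibroblast-like cells all members called were lower, and all were ADAMTS genes: 3 of 16 tested, where 2.17% of all 6092 genes tested were lower and 1.71% higher. Over all named classes compared, 10 member calls were higher and 11 lower out of 97 tests in 11 classes, where 2.88% and 2.79% of all gene tests were. There were 0 calls among 5 members in keratinocyte-like cells (0.708% of all genes higher and 1.05% lower) and among 5 in the T, NK or innate lymphoid-like class (2.89% and 3.79%). The same held for 6 members in melanocyte-like (1.59% and 1.72%) and 10 in smooth muscle-like cells (4.54% and 3.16%). In fibroblast-like cells the median log2 ratio of the members was -0.47, against 0.05 over all genes, and 3 of the 16 lay above 1.

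Adamts2 stood at 931 CPM [915 to 946] in young control cells, 701 [655 to 749] in knockout cells and 401 [375 to 429] in old control cells. The ratio of old to young control was 0.431 [0.402 to 0.462], called in 9 of 9 other choices, and it was 0.447 [0.410 to 0.485] in cluster 1, 0.298 [0.155 to 0.524] in cluster 33 and 0.457 [0.357 to 0.580] in cluster 34. Procollagen genes, which encode its substrates, were also lower: Col1a1 was 4785 against 19180.5 CPM and Col3a1 2835 against 12925. Adamts4 was lower in the old control (ratio 0.354 [0.222 to 0.538]), from 23 UMIs and called in 6 of 9 other choices, and also in dermal papilla or sheath-like cells (ratio 0.338 [0.247 to 0.458]). Adamts12 stood at 47.5 CPM [44.0 to 51.1] in young control cells, 25.8 [17.7 to 36.4] in knockout cells and 17.5 [12.3 to 24.1] in old control cells, a ratio of 0.368 [0.257 to 0.512]. Cluster 13, thinly filled in the old control, held 83.6 CPM of Adamts12 in the young control. Within cluster 1 the levels were 13.2 [7.83 to 20.9] in the old and 22.5 [19.3 to 26.0] in the young control, a mean under 20 CPM. Adamts1 was 350.0 against 664 CPM, with a ratio of 0.527 [0.489 to 0.568] just outside the limit.

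The endothelial-like classes shared the lower ADAMTS levels. In lymphatic endothelial-like cells Adamts1 stood at 1320.2 CPM [1282 to 1359] in young control cells, 1406 [1299.8 to 1519] in knockout cells and 618 [579 to 659] in old control cells (old ratio 0.468 [0.436 to 0.502]). Adamts9 stood at 123 CPM [111 to 135] in young control cells, 113 [84.3 to 148] in knockout cells and 53.6 [42.6 to 66.7] in old control cells (ratio 0.437 [0.340 to 0.555]). In both cases young control and knockout overlapped and the old control lay below them, and these were the 2 lower calls among 10 members (2.97% of all genes). In vascular endothelial-like cells the Adamts9 ratio was 0.481 [0.388 to 0.591] and that of Adamts1 0.514 [0.476 to 0.556], the latter not past the limit. Adamts9 and Timp4 were the 2 lower calls among 11 members (5.29% of all genes), and the Timp4 ratio was 0.368 [0.253 to 0.522]. The old vascular class came mostly from cluster 28, led by Vwf and Ackr1 (238 of 354 cells), and the young one from cluster 18, led by Cd36 and Gpihbp1 (566 of 630). Within cluster 28 Adamts9 was 125 against 587 CPM, and within cluster 18 16.9 against 154. Timp4 reversed within cluster 18, the largest shared one, to a ratio of 1.22.

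Schwann-like cells of the old control had less Mmp15 and Adamts5. Mmp15 stood at 192 CPM [172 to 213] in young control cells, 176 [158 to 195] in knockout cells and 82.3 [64.9 to 103] in old control cells, an old ratio of 0.429 [0.331 to 0.551] (2 of 12 members lower and 0 higher, where 4.53% and 3.13% of all genes were). The call was lost with the stricter cell filter (0.612), within cluster 5 (0.467) and after subtraction of free RNA (0.526), which was estimated at 0.30 of UMIs in the old and 0.119 in the young control. Adamts5 had an old ratio of 0.454 [0.345 to 0.590], and 0.306 [0.203 to 0.449] within cluster 5. It was not called after subtraction of free RNA (0.519) or in thinned cells (0.536). In dermal papilla or sheath-like cells Adamts10 had an old ratio of 0.499 [0.413 to 0.602], at the limit itself (2 of 11 members lower, 2.02% of all genes). It was called in 4 of 9 other choices. The call was lost with the stricter filter, a mitochondrial limit of 25%, no doublet removal, separate clustering and subtraction of free RNA. Timp3 was higher there, 260.5 against 113 CPM (ratio 2.31 [2.07 to 2.59], 1 of 11 members higher, 2.88% of all genes), but 1.20 in thinned cells.

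Higher calls in the old control were for Mmp2, Mmp9, Timp2, Timp3 and Timp4, in classes other than fibroblasts. In sebocyte-like cells Mmp2 stood at 10.9 CPM [7.72 to 14.8] in young control cells and 39.8 [33.3 to 47.3] in old control cells (ratio 3.67 [2.55 to 5.39]). Timp2 stood there at 45.4 CPM [38.7 to 52.9] in young control cells and 162 [149 to 177] in old control cells (ratio 3.58 [2.99 to 4.29]), called in 9 of 9 other choices (2 of 5 members higher and 0 lower, where 4.57% and 1.31% of all genes were). The summed fibroblast markers in the same cells were 1871 CPM in the old and 742 in the young control, and free RNA was estimated at 0.176 and 0.0307 of UMIs. After its subtraction the ratios were 3.36 for Mmp2, whose mean level was then under 20 CPM, and 3.56 for Timp2. In vascular endothelial-like cells Timp2 stood at 556 against 248 CPM (ratio 2.24 [2.00 to 2.50]) and Mmp2 at 70.3 against 33.2 (ratio 2.12 [1.55 to 2.91]), 2 of 11 members (4.26% of all genes). Summed fibroblast markers were 2847 and 2046 CPM, and neither call held within the largest shared cluster (1.17 and 1.25). In lymphatic endothelial-like cells Mmp2 was 37.7 against 13.3 CPM (ratio 2.84 [1.90 to 4.29]), and 3.68 after subtraction, when its mean level was under 20 CPM. This call was made in 5 of 9 other choices, and the ratio was 1.11 without doublet removal, 2.11 with the stricter filter and 1.63 in thinned cells. Timp4 was the other higher member of 10 in that class (2.86% of all genes), at 16.1 CPM [12.2 to 21.0] in young control cells and 39.7 [30.3 to 51.1] in old control cells, a ratio of 2.46 [1.68 to 3.61]. It was called in 8 of 9 other choices, but not in thinned cells. The part of fibroblast RNA in these results was not tested beyond that subtraction.

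In dendritic or Langerhans-like cells 3 of 6 members were higher and 0 lower in the old control, where 2.35% and 2.18% of all genes were. Mmp9 stood at 82.7 CPM [73.8 to 92.3] in young control cells and 169 [147 to 194] in old control cells (ratio 2.05 [1.71 to 2.44]), Timp2 had a ratio of 2.19 [1.77 to 2.69] and Timp3 of 2.37 [1.92 to 2.91]. The class held 137 cells of the Cd207-led cluster 20 and 102 of cluster 40 in the young control, but 350 and 12 in the old control. Within cluster 20 Mmp9 was 188 [163 to 215] against 109 [97.4 to 122] CPM, under 2-fold, and in thinned cells the class ratio was 0.894. The Mmp9 call was made in 3 of 9 other choices and the Timp2 call in 4 of 9. The Timp2 ratio was 0.921 with the stricter filter. Its call was also lost without doublet removal, with separate clustering, after subtraction of free RNA and in thinned cells. Timp3 was not called with the stricter filter (1.24), without doublet removal (1.65) or after subtraction of free RNA (1.63). The median cell of this class held 8135 UMIs in the young and 1608 in the old control. In cluster 17 Timp3 was 226 against 76.9 CPM (ratio 2.94 [2.38 to 3.63], 1 of 7 members higher and 0 lower, where 5.92% and 4.32% of all genes were), with free RNA estimated at 0.323 and 0.0953 of UMIs. Mmp12 in the same cluster was level, at 84.6 CPM [73.8 to 96.5] in young control cells and 89.6 [69.1 to 114] in old control cells.

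The balance of inhibitor to protease transcripts was lowest in the knockout in most classes read in all libraries. These were the fibroblast-like, endothelial-like, dermal papilla or sheath-like, Schwann-like and T, NK or innate lymphoid-like cells. The summed TIMP level divided by the summed MMP and ADAMTS level was 0.757 in young control, 0.647 in knockout and 1.22 in old control fibroblast-like cells. In vascular endothelial-like cells it was 1.12, 0.702 and 1.46, and in lymphatic endothelial-like cells 2.79, 1.92 and 3.45. In dermal papilla or sheath-like cells it was 0.456, 0.350 and 0.768. Smooth muscle-like (0.608, 0.852 and 1.03) and keratinocyte-like cells (0.446, 0.471 and 0.663) did not share this order. Over MMP transcripts alone the order also differed: in vascular endothelial-like cells the ratio was 14.5, 15 and 8.44. The old control value in fibroblast-like cells went with lower sums of ADAMTS (1137 against 2169 CPM) and MMP transcripts (1898 against 2398) at a Timp sum of 3690.0 against 3459. Timp2 alone stood at 2601 CPM in the young control fibroblast-like cells. These are ratios of transcripts, not of active enzyme, and they do not show which inhibitor acts on which protease.

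Of 51 other genes of the matrix protease system (activators, other inhibitors, ADAM sheddases, ADAMTS-like proteins, cathepsins and substrates), 33 were tested in knockout fibroblast-like cells, with 2 higher and 7 lower. Of all genes tested there, 6.06% were higher and 3.89% lower. Among the lower were the substrates Col1a1 (0.366) and Col3a1 (0.437), the serine protease Htra3 (0.386), Adam19 (0.404), Adamtsl1 (0.363) and Fap, fibroblast activation protein (0.140). Higher were Adamtsl3 (3.30) and the protease inhibitor Serpine2 (2.17). In old control fibroblast-like cells 0 of 32 were higher and 6 lower, where 1.71% and 2.17% of all genes were. Among the lower were Col3a1 (0.219), Col1a1 (0.249), Adam19 (0.273), Fap (0.337) and Adam17 (0.490). Both comparisons share the young control library, whose fibroblast-like cells had the highest collagen levels, so their lower calls are not independent. In vessels of the knockout, Plat, tissue plasminogen activator, was higher in lymphatic (4.01) endothelial-like cells. It was the 1 higher gene of 25 tested there, with 0 lower, where 1.43% and 2.88% of all genes were.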

How the data were processed

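Per the labels' protocols, collagenase-digested skin was run on a droplet platform with a 3′ kit (10x Genomics, v3.1). The deposited values are UMI counts per gene and barcode, which per the file headers the authors made with Cell Ranger 3.1.0. The submitters' processing notes also name Seurat 3.1.5 and the build mm10. Sources used here do not give how the authors chose barcodes or whether counting used strand.

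A minimum of 500 genes and 1000 UMIs and a mitochondrial share of no more than 15% left 11722, 9408 and 12074 barcodes, and the 8% with the highest Scrublet score were removed per library, since its automatic threshold marked 2.82%, 0% and 0.0083%. This left 10784 young control, 8655 knockout and 11108 old control cells. Cells were clustered together with scanpy 1.11.5 and leidenalg 0.10.2 on 2000 variable genes, 30 principal components and 20 neighbours, without the 45 members and without batch correction. Of the 44 clusters, those with at least 3 markers of a class at 20 CPM and 2-fold over the median cluster, and a margin of 1 on the log2 scale to the next class, were named. A cluster stayed unnamed where its 10 leading genes held more markers of another class. The naming thresholds were chosen with the cluster tables in view. The unnamed clusters 17 and 23 were compared by number.

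Counts were summed per class and library and given as CPM of that sum, for classes with at least 50 cells. CPM carry exact Poisson intervals, shares of cells exact Clopper-Pearson intervals, and ratios exact binomial intervals of one group's part in the summed count. Log2 ratios had 0.5 added to each count. The fold rule was tested on simulated data. Free RNA was estimated per class from markers of other classes and the 10% of barcodes with the fewest UMIs. These barcodes held at most 765 to 1092 UMIs by library and may include shallow cells. Named genes are all members, with full values where they reached 20 CPM, and, among the other protease genes, at most 8 per class and comparison that passed the fold rule and had the highest mean CPM; some genes that pass are not reported here. Alternatives are in the closing section. The members, lists and markers were chosen with earlier results of these data known.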

Additional observations from a re-analysis of the deposited data

Results flagged for a closer look

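As class sums, Timp4 differed in direction between the vessel types of the old control. Its ratio of old to young control was 2.46 in lymphatic endothelial-like cells (60 against 56 UMIs) and 0.368 in vascular endothelial-like cells (37 against 232 UMIs). It was singled out because the library moved one way in one class and the opposite way in the other under the same contrast. The difference was not tested, since each group is 1 library. Within vascular cluster 18 the Timp4 level was 118 [82.3 to 164] CPM in the old and 97.1 [84.9 to 111] in the young control, with overlapping intervals. The lymphatic call was not made in thinned cells. Timp4 lies inside Syn2 on the other strand, and Syn2 stood at 32.4 against 47.9 CPM in lymphatic endothelial-like cells.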

How the results depend on the processing

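Alternatives were a stricter cell filter, a mitochondrial limit of 25%, no doublet removal, resolution 2, each library clustered alone, TMM factors, subtraction of free RNA, cells thinned to 1500 UMIs, a mean CPM of at least 5 and, chosen after seeing the data, the largest shared cluster of each class only. Over all named classes, the 12 higher member calls of the knockout became 7 with the stricter filter. The 5 lower calls became 8 with the limit of 25%, 8 with TMM factors, 12 at a mean CPM of 5 and 11 in the largest shared cluster. In fibroblast-like cells the 2 higher calls became 1 with the stricter filter, with separate clustering or with free RNA subtracted, and 4 in the largest shared cluster. The 2 lower calls there became 1 with separate clustering, in thinned cells or in the largest shared cluster, and 5 with TMM factors. For the old control, the 10 higher calls became 4 without doublet removal and in thinned cells, the 11 lower calls became 20 at a mean CPM of 5, and the 3 lower calls of fibroblast-like cells became 1 in thinned cells and in the largest shared cluster. A lower CPM limit tests more genes, and the shared cluster and thinned cells hold fewer UMIs; otherwise the cause was not tested. Among single genes 6 values reversed. They were Adamts9 in knockout fibroblast-like cells with separate clustering (0.180), Timp4 in knockout vascular endothelial-like cells with the limit of 25% (0.617) and with separate clustering (0.836), Mmp9 in old dendritic or Langerhans-like cells in thinned cells (0.894), Timp2 in the same class with the stricter filter (0.921), and Timp4 in old vascular endothelial-like cells in the largest shared cluster (1.22). Of the other single-gene values 369 moved by less than their counting interval and 116 by more. No paired analysis was possible because each group is 1 library, whose number only names it.

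Depth limits low members: in knockout fibroblast-like cells 3 UMIs correspond to 2.42 CPM. Smooth muscle-like cells of the young control, lymphatic endothelial-like cells of the knockout and keratinocyte-like cells of the knockout held 102, 54 and 71 cells, and most knockout cells belong to no named class. Animal, sex and library effects cannot be told apart from the groups.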

Other observations

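Further differences lay outside the comparisons above because the mean level was under 20 CPM or a library held fewer than 50 cells; they were chosen after their values were seen and carry no explanation. Timp1 in sebocyte-like cells was 32.5 [26.6 to 39.2] CPM in the old control (106 UMIs) and 0.278 [0.00700 to 1.55] in the young control (1 UMI), beside 19.2 and 6.93 CPM in the lowest-UMI barcodes of these libraries. Mmp3 in lymphatic endothelial-like cells was 36.9 [21.5 to 59.1] CPM in the knockout (17 UMIs), 2.02 [0.812 to 4.16] in the young control and 1.99 [0.410 to 5.80] in the old control, with 24.1, 33.8 and 10.6 CPM in the lowest-UMI barcodes. Mmp15 in vascular endothelial-like cells was 3.52 [0.958 to 9.0] CPM in the old and 23.6 [18.1 to 30.3] in the young control, and within cluster 28 2.38 [0.288 to 8.59] against 45.5 [24.2 to 77.7].

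The macrophage or monocyte-like cluster 32 held 189 young control, 41 knockout and 32 old control cells. Timp1 was 138 [96.8 to 191] CPM in its knockout cells (36 UMIs), while 0 UMIs in the young control allow up to 4.30 CPM, at 3 counts in that sum. Mmp12, macrophage elastase, was 129 [76.6 to 204] CPM in its old control cells (18 UMIs) and 5.73 [1.56 to 14.7] in its young control cells (4 UMIs). Mmp13, under 20 CPM in all classes of at least 50 cells, was 34.6 [15.8 to 65.6] CPM in the knockout cells of this cluster (9 UMIs) and 10.0 [4.03 to 20.7] in the young control cells. In the unnamed knockout cluster 19 (610 cells) Timp1 was 87.1 [71.8 to 105] CPM.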
